A study of Mus musculus with 294 samples.

Results

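The core genes of de novo lipogenesis were described in the liver of F2 mice: Acaca, Acacb, Acly, Fasn, Elovl6, Scd1, Me1, Thrsp, Pnpla3 and Pklr. These 10 genes were taken by symbol from the array annotation, each with its brightest probe set, out of 16643 genes measured. The animals were the second generation (F2) of a cross between B6/J and A/J mice, and each of 294 livers gave 1 array of normalized intensities of total RNA. The labels name a single group and give no treatment, diet, age or sex. All values are bulk liver values, so fewer cells of a type and less RNA per cell cannot be told apart. The animals were described in 2 classes set apart by the widest gap in the sorted values of Eif2s3y, a gene of the Y chromosome, which ran from 3.03 to 6.97 on the log2 scale. The Eif2s3y-high class held 49.7% of the animals and the Eif2s3y-low class 50.3%, and the classes are classes of array values. Animals whose title numbers begin with the same 3 digits were put in a label block. There were 15 such blocks, numbered 1 to 15 here in the order of those digits, with 17 to 23 animals in each, and the labels do not say what they stand for. The hepatocyte markers Alb, Ttr, Apob, Hnf4a and Tat had mean log2 intensities between 11.03 and 14.55, against array medians of 4.40 to 4.53. Of the 6 genes listed as adipose markers, Adipoq, Lep and Cfd (2.58, 2.55 and 4.38) lay below these medians and Retn, Fabp4 and Car3 (4.598, 5.56 and 13.71) above them. Car3 lay within the range of the hepatocyte markers, so its values cannot be read as a measure of adipose tissue here.

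De novo lipogenesis builds fatty acids from the carbon of sugars. Pyruvate kinase of the liver (Pklr) closes glycolysis, ATP citrate lyase (Acly) splits exported citrate into acetyl-CoA, and the acetyl-CoA carboxylases Acaca and Acacb make malonyl-CoA, from which fatty acid synthase (Fasn) builds palmitate with NADPH that comes in part from malic enzyme (Me1). Elovl6 lengthens palmitate and Scd1 desaturates the products, while Thrsp (Spot 14) is a nuclear and cytosolic protein tied to lipogenic output and Pnpla3 is an acyl hydrolase and transferase of lipid droplets. In liver this set is known to be switched on together after feeding, by insulin through SREBP1c (Srebf1), by glucose through ChREBP (Mlxipl) and by oxysterol-activated LXR (Nr1h3).

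Promoter windows from RefSeq, covering 250 bases before to 50 after a transcription start on build GRCm38.p6, were at hand for 9 of the 10 genes, in 11 windows. Both strands were searched for CCAAT (the NF-Y box), CACGTG (the E-box), TCACNCCAC (a sterol response element core), GGGCGG (the Sp1 box) and TATAAA (the TATA box). CCAAT or its reverse was in 7 of the 11 windows, those of Acacb, Acly, Fasn, Me1, Pklr, Pnpla3 and Thrsp, against 37.4% of 32851 windows of the same length over all genes. GGGCGG was in 3 of the 11 windows against 35.7% of all, and TATAAA in 2 against 13.6%. CACGTG and TCACNCCAC were in 0 of the 11, against 7.15% and 1.24% of all windows. Only exact matches were counted, so variant forms of these elements were not looked for. The windows of Acaca and Acacb start at bases 84195188 and 114165268, inside genes that begin at 84129635 and 114146321. Starts further upstream in these 2 genes were not covered. The windows of Fasn and Acly are printed because these genes formed the closest pair of the set, and that of Thrsp because its levels set it apart from the rest. Capitals mark CCAAT or its reverse ATTGG. The Fasn window, chr11:120824498-120824797 on the minus strand, held 3 matches, of which those starting 62 and 59 bases before the start overlap. The Acly window, chr11:100527951-100528250 on the minus strand, held 1 match at base 38 after the start. The Thrsp window, chr7:97417501-97417800 on the minus strand, held 2 matches, 79 and 52 bases before the start.
Fasn: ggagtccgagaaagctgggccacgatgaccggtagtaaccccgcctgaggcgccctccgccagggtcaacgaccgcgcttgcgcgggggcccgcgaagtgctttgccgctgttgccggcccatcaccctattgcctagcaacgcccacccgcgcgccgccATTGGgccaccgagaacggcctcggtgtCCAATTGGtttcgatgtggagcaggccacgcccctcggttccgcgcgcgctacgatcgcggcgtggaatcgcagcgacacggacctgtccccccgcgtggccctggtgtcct
Acly: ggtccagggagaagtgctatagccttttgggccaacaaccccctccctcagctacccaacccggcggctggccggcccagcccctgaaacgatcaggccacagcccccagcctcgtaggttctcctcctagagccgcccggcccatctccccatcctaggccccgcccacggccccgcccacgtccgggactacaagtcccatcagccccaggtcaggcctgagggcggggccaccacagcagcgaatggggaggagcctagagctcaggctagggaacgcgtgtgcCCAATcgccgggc
Thrsp: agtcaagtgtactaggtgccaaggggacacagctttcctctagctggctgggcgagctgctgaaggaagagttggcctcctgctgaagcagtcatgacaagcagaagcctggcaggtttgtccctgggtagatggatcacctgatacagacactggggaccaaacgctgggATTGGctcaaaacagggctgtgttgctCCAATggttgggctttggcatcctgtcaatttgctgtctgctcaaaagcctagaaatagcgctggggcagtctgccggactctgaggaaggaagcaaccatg

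Of the 10 genes, 5 were lower in Eif2s3y-high livers (Acaca, Acacb, Fasn, Elovl6 and Pnpla3), 1 was higher (Thrsp), and 4 did not pass the test (Acly, Scd1, Me1 and Pklr). These calls rest on limma fitted to all genes, with Benjamini-Hochberg adjustment over them and a threshold of 0.05. In the same fit 55.1% of all genes differed between the classes, 24.8% being lower and 30.3% higher in Eif2s3y-high livers, so that a count of 6 of 10 lies near the background. All 7 measured Kupffer cell and macrophage markers, and all 5 measured endothelial markers, were also lower in Eif2s3y-high livers, with a median log2 difference of -0.60 for the first list. The log2 of the summed intensities of the Kupffer list ran from 10.89 to 13.78 in Eif2s3y-high and from 11.69 to 14.46 in Eif2s3y-low livers. The part of this list in the class differences of the lipogenic genes was not tested.

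The genes that feed the pathway had like levels in both classes. Pklr had intensities of 176.2, 412.6 and 925.6 (lowest, median and highest) in Eif2s3y-high livers and of 198.1, 419.5 and 599.8 in Eif2s3y-low livers. Its log2 difference, Eif2s3y-high minus Eif2s3y-low as for all genes below, was -0.01 with a 95% interval of -0.09 to 0.07. Acly ran from 585.5 over a median of 1215 to 4414 in Eif2s3y-high and from 548.2 over 1261 to 3259.6 in Eif2s3y-low livers. The classes overlapped almost wholly, with a log2 difference of -0.05 and an interval of -0.16 to 0.06. Me1 lay at 178.6, 415.5 and 2309 in Eif2s3y-high and at 252.2, 405.3 and 1070.0 in Eif2s3y-low livers, and values above 1070.0 occurred in the first class alone. The log2 difference of its means was 0.05 (interval -0.07 to 0.17).

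What set Pklr and Me1 apart was spread. The ratio of the 90th to the 10th percentile of Me1 was 3.15 in Eif2s3y-high and 1.93 in Eif2s3y-low livers, and that of Pklr 2.16 and 1.69. Absolute deviations from the class median differed between the classes for both genes, with limma adjusted p of 0.00163 for Me1 and 0.000755 for Pklr. Of all genes, 3.65% passed this test in either direction, and 3.15% were wider in Eif2s3y-high livers, as both of these were. The other 8 genes did not pass this test, which was added after the data were seen.

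The carboxylases and the synthase were lower in Eif2s3y-high livers. Acaca, whose malonyl-CoA is used for synthesis, had intensities of 126.9, 318.4 and 681.8 in Eif2s3y-high and 213.6, 378.0 and 697.9 in Eif2s3y-low livers. Its log2 difference was -0.26 (SE 0.040, limma adjusted p = 1.4e-09), and the Eif2s3y-low mean was higher in 14 of 15 label blocks. Acacb, the carboxylase at the mitochondrial surface whose malonyl-CoA restrains fatty acid oxidation, lay at 39.4, 102.1 and 540.1 against 53.5, 143.1 and 503.8. It had the largest difference of the set, -0.45 (SE 0.088, limma adjusted p = 1.94e-06), again with the Eif2s3y-low mean higher in 14 of 15 blocks. Fasn lay at 123.3, 475.0 and 2879 against 255.1, 546.3 and 2084, with a difference of -0.26 (SE 0.072, limma adjusted p = 0.000726) and a higher Eif2s3y-low mean in 11 of 15 blocks. In each case the ranges overlapped over most of their length. Of the Eif2s3y-high animals, 18.5% lay above the Eif2s3y-low median of Acaca, 28.1% above that of Acacb and 39.04% above that of Fasn.

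The enzymes that finish the fatty acid behaved unlike each other. Elovl6 had intensities of 95.5, 263.96 and 1623 in Eif2s3y-high and 114.4, 311.2 and 1297 in Eif2s3y-low livers, a log2 difference of -0.18 (SE 0.074, limma adjusted p = 0.0305). That call was lost without the 32 arrays least correlated with the others (log2 difference -0.15, limma adjusted p = 0.0987), with the second brightest probe set (-0.12, 0.137), in the even label blocks (-0.06, 0.72), without 60 animals high in markers of pancreas, muscle or adipose tissue (-0.13, 0.144) and without label block 1 (-0.14, 0.102). Scd1 ran from 612.4 over 8428 to 17161 in Eif2s3y-high and from 511.5 over 7894 to 15997 in Eif2s3y-low livers. Its log2 difference was 0.11 with an interval of -0.11 to 0.33. Scd1 was the most variable of the set and had a long lower tail. Its ratio of the 90th to the 10th percentile was 5.02 and 5.57. Of the Eif2s3y-high animals 10, and of the Eif2s3y-low animals 9, lay more than 2 log2 units below their class median. These animals came from 7 and 8 label blocks. As far above the median lay 0 animals, but an upper tail could not show by this measure. The highest intensity of any gene on any array, 25519, was less than 2 log2 units above these medians.

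Thrsp was the only gene of the set that was higher in Eif2s3y-high livers, and like Scd1 it had a lower tail. Its intensities were 209.4, 5327 and 9556 in Eif2s3y-high and 362.6, 3959 and 10609 in Eif2s3y-low livers, with a log2 difference of 0.23 (SE 0.096, limma adjusted p = 0.0317) and a higher Eif2s3y-high mean in 11 of 15 blocks. That call was lost (log2 difference 0.14, limma adjusted p = 0.31) without the same 60 animals and in the odd label blocks (0.10, 0.627). The marker scores that picked the 60 animals included Car3, whose r with Thrsp was 0.678 in Eif2s3y-high and 0.347 in Eif2s3y-low livers. More than 2 log2 units below the class median lay 9 Eif2s3y-high animals, 7 of them from label block 1, and 3 Eif2s3y-low animals. Of the 9, 2 were also in the Scd1 tail, and of the 3, 0 were. Pnpla3 was dim, with intensities of 14.04, 18.6 and 26.9 in Eif2s3y-high and 13.5, 19.8 and 29.4 in Eif2s3y-low livers, and it lay below the median of its own array in 85.4% of the animals. Its log2 difference was -0.09 (SE 0.024, limma adjusted p = 0.00107). Within the classes the SD of Pnpla3 was larger than that of 65.6% of genes, while the other 9 genes exceeded between 92.4% (Acaca) and 99.7% (Scd1) of them.

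**Figure D1:**
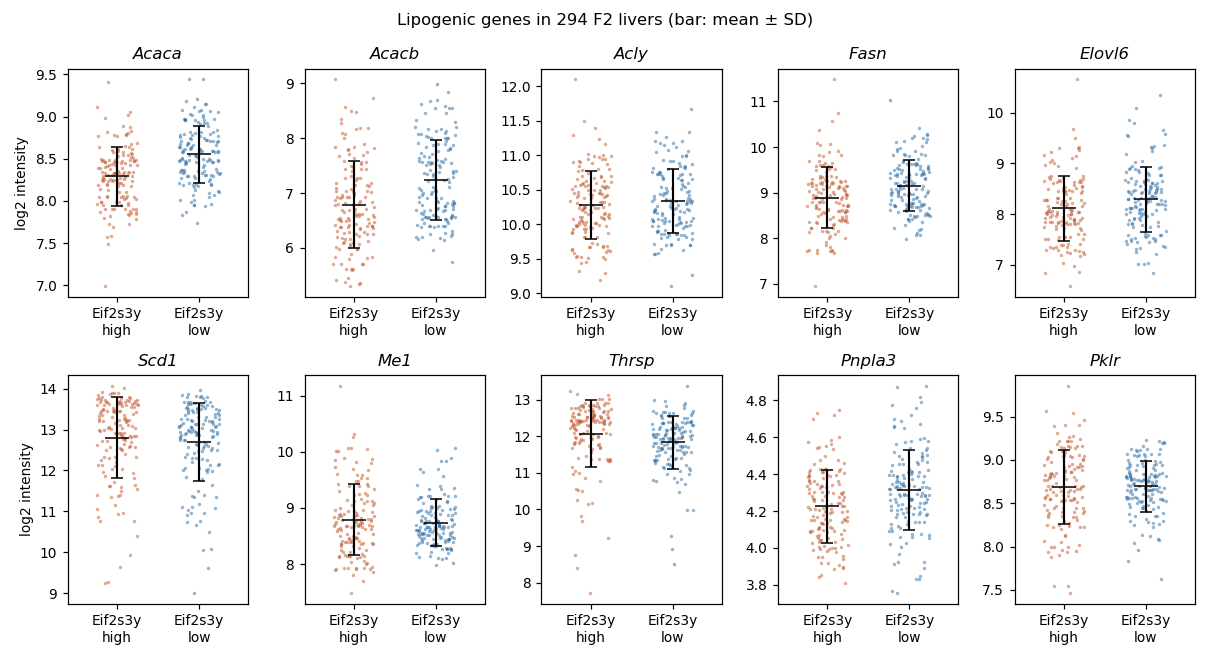
Log2 intensity of each lipogenic gene (vertical axis, own range for each gene) in the Eif2s3y-high and Eif2s3y-low livers (horizontal axis), 1 point per animal, with the mean ± SD as bars. The classes overlap for every gene; the lower tails of Scd1 and Thrsp and the wider spread of Me1 and Pklr in Eif2s3y-high livers are visible.

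The set was coexpressed within each class. Over its 45 pairs the mean Pearson r was 0.530 ± 0.140 in Eif2s3y-high and 0.466 ± 0.143 in Eif2s3y-low livers (SD over the 15 label blocks, within which it ran from 0.288 to 0.772 and from 0.143 to 0.666). The median gene outside the set had a mean r with these 10 genes of 0.0023 and -0.0067. A pair was called where limma fits in both directions passed an adjusted p of 0.05 over 16642 genes: 38 pairs in Eif2s3y-high and 39 in Eif2s3y-low livers were called positive, and every r was above 0 (lowest 0.137 and 0.197). Over all genes and all 10 lipogenic genes, 8.28% of relations were called positive in Eif2s3y-high and 5.63% in Eif2s3y-low livers. For a single lipogenic gene the share was between 2.42% (Elovl6) and 16.3% (Pnpla3) in Eif2s3y-high livers, and between 1.61% (Pnpla3) and 8.61% (Acly) in Eif2s3y-low livers. In two-sided permutation tests of r with 100000 resamples, 35 and 31 of the 45 pairs reached 1e-05, the smallest p that these can give, and 34 and 30 did for Spearman's rho. The 2 animals farthest from the class median of 1 gene of each pair, the first in the order given at the start, were then left out. No r moved by more than 0.0765 in Eif2s3y-high and 0.0626 in Eif2s3y-low livers. Animals extreme for the second gene alone, such as the tail of Thrsp in most of its pairs, were not removed by this step. A single axis held 60.4% and 53.7% of the variance of the 10 standardised genes.

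The core of the set was the line from citrate to palmitate. Acly and Fasn had an r of 0.864 (rho 0.848) in Eif2s3y-high and 0.878 (rho 0.865) in Eif2s3y-low livers, positive within 15 of 15 label blocks in both classes, and each was the gene most correlated with the other among all genes. Fasn and Acaca had an r of 0.838 and 0.822, with rho of 0.828 and 0.834, and Acly and Acaca one of 0.764 and 0.739, with rho of 0.754 and 0.762. All 3 pairs had permutation p of 1e-05 for r and rho in both classes. Averaged over the 9 other genes, r was 0.653 and 0.608 for Fasn and 0.651 and 0.613 for Acly. It was 0.592 and 0.543 for Acaca, 0.588 and 0.528 for Acacb, 0.578 and 0.475 for Pklr, 0.590 and 0.430 for Me1, and 0.546 and 0.412 for Elovl6.

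By Pearson's r, Scd1 and Thrsp were looser members, and Pnpla3 the loosest. The mean r of Scd1 with the other genes was 0.479 and 0.363 and that of Thrsp 0.426 and 0.401. For Scd1, rho was above r with every other gene in both classes, except Pnpla3 in Eif2s3y-high livers (0.142 against 0.188). With Acacb in Eif2s3y-high livers, rho was 0.766 and r 0.656. The places of Scd1 and Thrsp below Elovl6 and Me1 rest on r, and no order by rho was drawn up. With each other, Scd1 and Thrsp had an r of 0.286 (permutation p = 0.00097) and a rho of 0.310 (permutation p = 0.00018) in Eif2s3y-high livers. In Eif2s3y-low livers r was 0.206 (permutation p = 0.0129) and rho 0.263 (permutation p = 0.00121), and the limma adjusted p of 0.125 did not pass. For Pnpla3 the mean r was 0.199 and 0.286, its highest r being with Acly in both classes (0.265 and 0.373). Of the 7 pairs not called in Eif2s3y-high livers all held Pnpla3, whose only called pairs there were those with Acly and Fasn. Of the 6 not called in Eif2s3y-low livers, 4 held Pnpla3 (with Elovl6, Scd1, Thrsp and Pklr) and the others were Elovl6 with Thrsp and Scd1 with Thrsp.

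**Figure D2:**
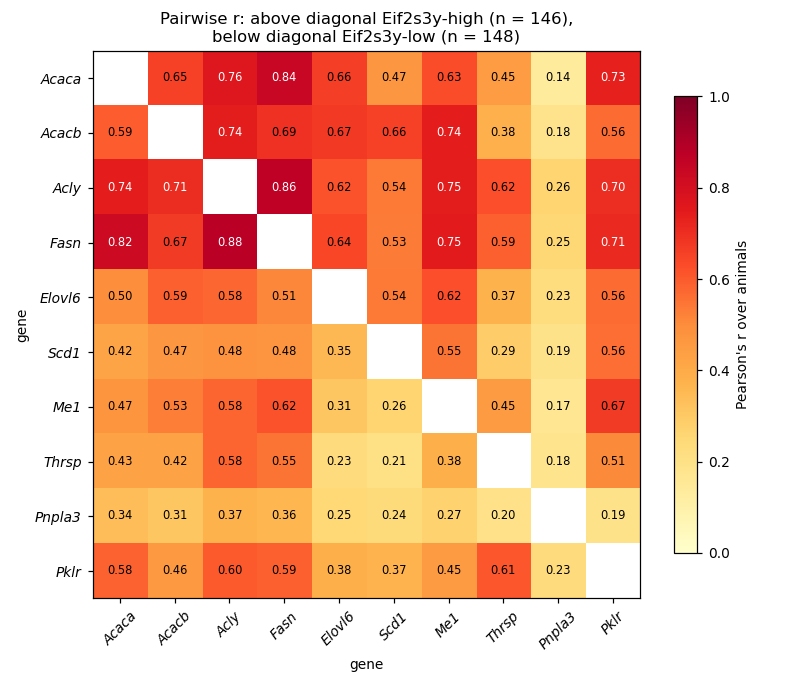
Pearson's r of each pair of lipogenic genes over animals, with Eif2s3y-high livers above the diagonal and Eif2s3y-low livers below it; darker red is higher r, printed in each cell. Acly, Fasn and Acaca form the darkest block in both classes, and the row and column of Pnpla3 are on average the palest.

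Whether the coexpression itself differed between the classes was tested by the contrast of slopes in limma. Of the 45 pairs, 0 passed an adjusted p of 0.05, and 3 had an unadjusted p under 0.05 in both fits: Elovl6 with Me1, Scd1 with Me1 and Me1 with Pklr, all higher in Eif2s3y-high livers. The largest difference in r was 0.314 for Elovl6 and Me1 (0.624 against 0.310, limma adjusted p = 0.295), followed by 0.285 for Scd1 and Me1 (0.547 against 0.262, adjusted p = 0.287). Over all genes and the 10 lipogenic genes, 0.559% of relations passed this test, from 0.00601% with Pnpla3 to 2.54% with Thrsp.

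A second probe set was at hand for Acly, Elovl6, Scd1 and Thrsp, and it followed the first with r between 0.920 (Acly, Eif2s3y-low) and 0.993 (Thrsp, Eif2s3y-high). Some animals were extreme for several genes at once. Among the 15 highest animals for each gene, 12 Eif2s3y-high and 10 Eif2s3y-low animals recurred for 5 or more genes, and 1 or more animals in each class were among the highest for all 10. Among the 15 lowest, 13 and 8 animals recurred for 5 or more genes, from 7 label blocks in each class.

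The label blocks differed in most of the genes. With class in the model, 8 of 10 genes passed the moderated F test of limma, the exceptions being Pnpla3 (adjusted p = 0.452) and Pklr (adjusted p = 0.275), against a background of 38.4% of all genes. Blocks held 26.8% of the within-class variance of Thrsp (adjusted p = 2.17e-11), 14.5% of that of Elovl6, 13.04% of that of Fasn and between 5.35% (Pnpla3) and 11.4% (Acly) of that of the other genes. These shares are not adjusted for the number of blocks, so some share arises even without a block effect. Relative to the class means, label block 4 was the highest for Acacb (0.60), Elovl6 (0.59), Scd1 (0.49), Me1 (0.27) and Acly (0.25), and block 12 the lowest for Scd1 (-0.57), Acacb (-0.50), Elovl6 (-0.29) and Pklr (-0.18). Removing the block means left the mean pairwise r at 0.531 and 0.457.

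**Figure D3:**
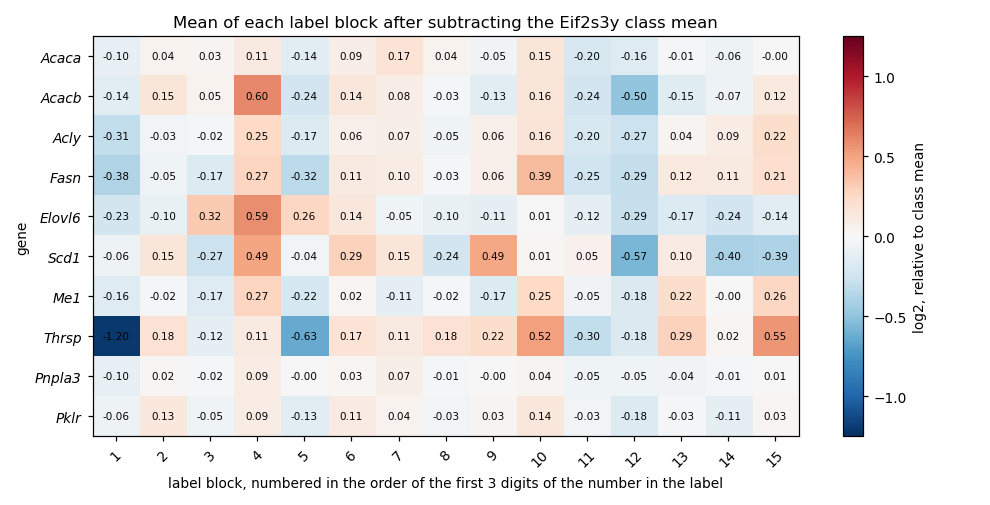
Mean log2 intensity of each gene (rows) in each of the 15 label blocks (columns) after subtraction of the Eif2s3y class mean, with red above and blue below the class mean and the value printed in each cell. Thrsp in block 1, at -1.20, is the lowest cell, and block 4 is above the class mean for all 10 genes.

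Thrsp in label block 1 stood apart from all other cells of that plot. In the 11 Eif2s3y-high animals of the block its intensities were 209.4, 902.8 and 6652 (lowest, median and highest), against a median of 5364 in the Eif2s3y-high animals of other blocks. In the 8 Eif2s3y-low animals of the block the median was 3283, against 3963 in those of other blocks. The log2 class difference was -1.45 in the block and 0.37 outside it, a difference of -1.82 (limma adjusted p = 5.95e-05), and 7.68% of all genes passed the same test. The block was singled out by these same values of Thrsp, so this p does not allow for the choice. Over all blocks the interaction of class and block also passed for Thrsp (limma adjusted p = 0.00615, against 2.05% of all genes), and it did not for the other 9 genes. Both tests were added after the data were seen. Of the 11 arrays, 3 were among the 32 least correlated with the others, and the median Thrsp intensity of the remaining 8 was 1725. In Eif2s3y-high livers Thrsp had an r of 0.462 with the median correlation of an array with all others (permutation p = 2e-05, adjusted over 20 such relations 0.0004), with a rho of 0.107 (permutation p = 0.198), and Pklr one of 0.330 (permutation p = 5e-05, adjusted 0.0005), with a rho of 0.311 (permutation p = 0.00017). Acly (r 0.260, adjusted permutation p = 0.0123), Me1 (0.219, 0.0354) and Scd1 (0.208, 0.046) also passed 0.05 in Eif2s3y-high livers. Their rho was 0.161, 0.177 and 0.131. In Eif2s3y-low livers Acacb alone passed (r -0.212, adjusted permutation p = 0.0354), with a rho of -0.093. The part of array quality in these values was not tested further. In the 11 Eif2s3y-high animals of the block the median of every other gene but Scd1 was also below that in other blocks. It was 265.4 against 493.9 for Fasn, 772.7 against 1267 for Acly, 250.6 against 321.9 for Acaca and 326.4 against 414.1 for Pklr. For Elovl6 it was 214.7 against 268.2, for Me1 362.5 against 425.5, for Acacb 95.8 against 103.7 and for Pnpla3 17.2 against 18.7. The median of Scd1 was higher in the block (9812 against 8382).

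**Figure D4:**
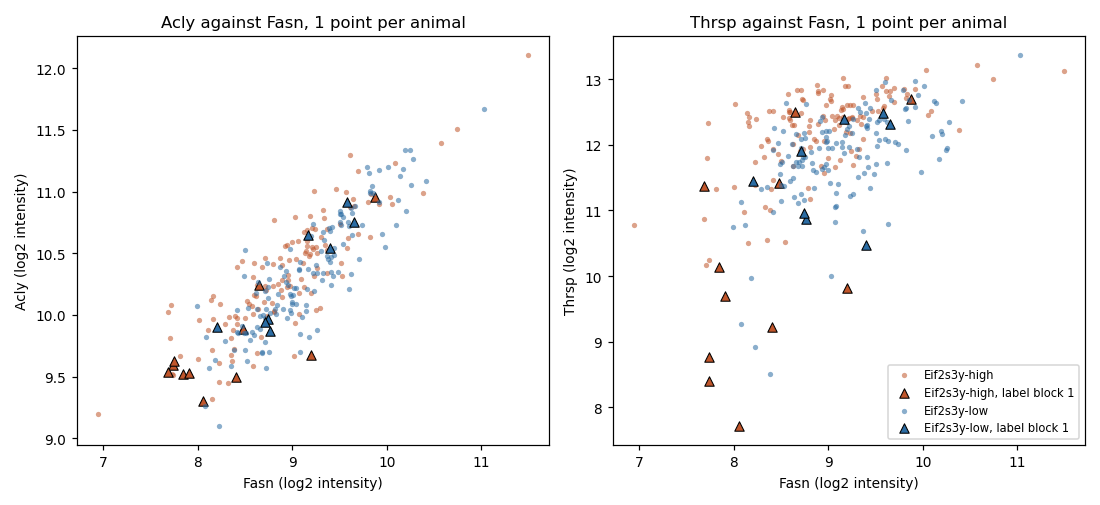
Log2 intensity of Acly (left) and Thrsp (right) against that of Fasn, 1 point per animal, coloured by Eif2s3y class, with the animals of label block 1 as outlined triangles. Acly follows Fasn along 1 line in both classes (r 0.864 and 0.878), while Thrsp has a tail of low values in which Eif2s3y-high animals of block 1 prevail (7 of the 9 in the lower tail).

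The block also carried some correlations of Thrsp. In Eif2s3y-high livers the gene outside the set nearest to Thrsp was Gamt, a methyltransferase of creatine synthesis, with an r of 0.705 but a rho of 0.378, and without block 1 r was 0.386. With Ppargc1b, a coactivator of lipogenic transcription factors, r was 0.444 and fell to 0.0096 without the block. With Mlxipl (ChREBP) it was 0.327 and turned to -0.170. With Srebf1 it went from 0.634 to 0.511, and with Fasn and Acly it was 0.614 and 0.585 without the block, against 0.588 and 0.622 with it.

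The genes outside the set that lay nearest to it were ranked in each class. By mean r with the 10 genes, the nearest in Eif2s3y-high livers was Pgd, phosphogluconate dehydrogenase of the pentose phosphate pathway (0.610), and the others, in order, were Aqp8, Acss2, Tkt, Fads2, Gpam, Pstpip2, Elovl5, Fads1 and Rdh11 (0.593 to 0.570). In Eif2s3y-low livers they were Slc25a1, the mitochondrial citrate carrier (0.575), Acss2, an acetyl-CoA synthetase (0.575), and 1810008I18Rik, Zfand4, Pgd, Pstpip2, Lss, Pmvk, Fads1 and Pcyt2 (0.568 to 0.532). Both lists of 10 held Acss2, Fads1, Pgd and Pstpip2, and 64 of the 100 nearest were shared. Every one of the nearest genes in both classes had its lowest r in the set with Pnpla3, except 1810008I18Rik, Zfand4 and Pcyt2, which had it with Elovl6. Tkt, a transketolase of the same pathway as Pgd, had rank 4 in Eif2s3y-high and rank 74 in Eif2s3y-low livers (mean r 0.587 and 0.371). By the limma contrast of slopes its r differed between the classes with 0 of the 10 genes.

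Other genes were inversely correlated with the set. In Eif2s3y-high livers the lowest mean r was that of Ang, a secreted ribonuclease (-0.471), before Pla2g12a, a secreted phospholipase (-0.470), Hrg and Fetub, plasma glycoproteins (-0.465 and -0.464), and Eci2, an isomerase of unsaturated fatty acid oxidation (-0.454). In Eif2s3y-low livers it was that of Hrg (-0.444), before Acadm, the medium-chain acyl-CoA dehydrogenase (-0.424), Mug1 (-0.410), Hsd17b11 and Pla2g12a (-0.391 and -0.390). Hrg and Pla2g12a were in both lists of 5.

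Single genes of the set had neighbours of their own. Fasn was nearest to Pgd in both classes (r 0.813 and 0.814, rho 0.778 and 0.798), and Pklr to Khk, the ketohexokinase that starts fructose breakdown (r 0.800 and 0.630, rho 0.781 and 0.615). Elovl6 was nearest to Lrrc28 in both classes (r 0.590 and 0.579, rho 0.569 and 0.572). The other genes had a different nearest gene in each class: Pgd and Zfand4 for Acaca, Elovl5 and Acss2 for Acacb, Pgd and Pstpip2 for Acly, Pltp and Ropn1l for Scd1, Cyb5b and Gpam for Me1, Gamt and Haus7 for Thrsp, and Nsg2 and Ercc6l for Pnpla3. All of these correlations passed the limma adjusted p of 0.05 over 16642 genes, the lowest r being 0.394 (rho 0.358) for Pnpla3 and Ercc6l. For Pnpla3 in Eif2s3y-high livers 0 of the 100 nearest genes were in the set, against 8 for Acaca, Acly, Fasn, Elovl6 and Pklr. In Eif2s3y-low livers 4 of the 100 nearest to Pnpla3 were in the set, the first being Acly at rank 7, against 7 for Acaca, Acacb, Acly and Fasn.

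Known regulators of the pathway followed it to a lesser degree. Of 16 regulators, 4 in Eif2s3y-high and 5 in Eif2s3y-low livers were called positive with at least 5 of the 10 genes, against 5.69% and 3.7% of all genes outside the set. Negative calls reached 3 of the 10 genes at most, for Mbtps1 in Eif2s3y-high livers. Insig1, a sterol-regulated brake on SREBP export, had the highest mean r (0.360 and 0.491), followed by Srebf1 (0.354 and 0.325) and by Mid1ip1, the partner of Thrsp that promotes polymerisation of Acaca (0.273 and 0.392). Insig2 passed in Eif2s3y-high livers (mean r 0.172, and -0.100 in the other class), and Scap (0.123 and 0.243) and Srebf2 (0.085 and 0.219) in Eif2s3y-low livers. For Insig2, Scap and Srebf2 the contrast of slopes between the classes passed with 0 of the 10 genes. The mean r of Mlxipl was 0.0085 and -0.090 and that of Nr1h3 -0.011 and -0.077. The highest r of Mlxipl with any of the genes in Eif2s3y-low livers was 0.071. The mean r of the other regulators lay between -0.192 (Mbtps1) and 0.174 (Thrb). Srebf1 itself was lower in Eif2s3y-high livers by a log2 difference of -0.53 (SE 0.050, limma adjusted p = 6.41e-21). Of the 16 regulators 9 were lower and 4 higher in these livers, against 24.8% and 30.3% of all genes.

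**Figure D5:**
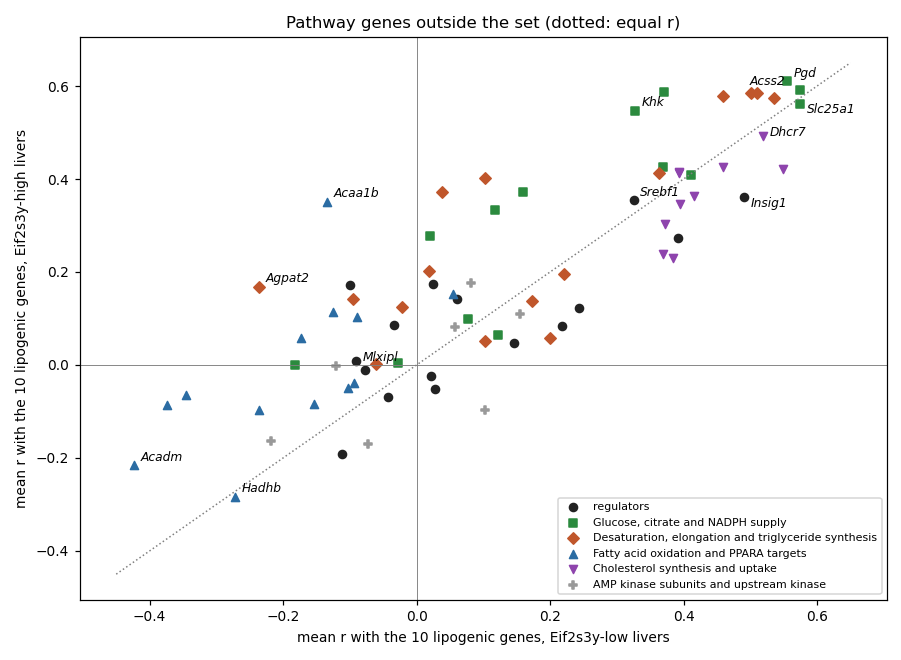
Mean Pearson r of each pathway gene outside the set with the 10 lipogenic genes, in Eif2s3y-low livers (horizontal axis) and Eif2s3y-high livers (vertical axis), 1 point per gene with its list by shape and colour; the dotted line marks equal r. Supply and cholesterol genes such as Pgd (0.610 and 0.556) and Dhcr7 (0.493 and 0.518) lie at the upper right, and oxidation genes such as Acadm (-0.216 and -0.424) at the lower left (Eif2s3y-high value first).

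The supply of glucose carbon, citrate and NADPH moved with the set. Of 14 measured genes of that list, 10 were called positive with at least 5 of the 10 lipogenic genes in Eif2s3y-high and 8 in Eif2s3y-low livers, led by Pgd, Acss2 and Slc25a1. Of all genes outside the set, 5.69% and 3.7% passed this rule. The median of the mean r of the 14 genes was 0.391 and 0.243. Pcx, pyruvate carboxylase, was at the other end of the list with -0.00092 and -0.182. Of 16 genes of desaturation, elongation and triglyceride synthesis, 7 and 6 were called positive, led by the desaturases Fads1 (0.574 and 0.535) and Fads2 (0.585 and 0.502) and by Gpam, the first acyltransferase of triglyceride synthesis (0.584 and 0.510). Agpat2, the acyltransferase that follows Gpam, had 0.169 and -0.236 and was called negative with 5 of the 10 genes in Eif2s3y-low livers.

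All 10 measured genes of cholesterol synthesis and uptake were called positive with at least 5 lipogenic genes in both classes, against 5.69% and 3.7% of all genes outside the set. The median of their mean r was 0.388 and 0.394. The highest were Dhcr7 (0.493 and 0.518), Lss (0.422 and 0.549) and Mvd (0.426 and 0.459), and the lowest, by the mean of both classes, were Cyp51 (0.239 and 0.369) and Sqle (0.231 and 0.385). In level these genes went the other way from the carboxylases: 9 of 10 were higher in Eif2s3y-high livers, against 30.3% of all genes. The median log2 difference was 0.58 over the list against 0.0122 over all genes outside the set.

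Fatty acid oxidation stood apart. Of 13 measured genes, 1 was called positive and 2 negative with at least 5 lipogenic genes in Eif2s3y-high livers, and 0 positive and 4 negative in Eif2s3y-low livers. Of all genes outside the set, 5.12% and 1.7% were called negative and 5.69% and 3.7% positive. Acadm was negative with 6 of the 10 genes in Eif2s3y-high and with 10 in Eif2s3y-low livers. The positive gene was Acaa1b, a peroxisomal thiolase, with a mean r of 0.350 in Eif2s3y-high and -0.134 in Eif2s3y-low livers. Whether its probe set also detects the near-identical Acaa1a was not tested, since probe sequences were not used here. Of 7 AMP kinase genes, whose product phosphorylates Acaca and Acacb, none was called positive with more than 3, those with 3 being Prkag2 in Eif2s3y-high and Prkab1 in Eif2s3y-low livers. Stk11, the upstream kinase, was called negative with 6 genes in Eif2s3y-low livers (mean r -0.219).

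Few chromosomal neighbours followed the set. Among the nearest measured genes on either side of each lipogenic gene, Enpep beside Elovl6 had an r of 0.450 and 0.543 and Pnpla5 beside Pnpla3 one of 0.319 and 0.316, called in both classes (limma adjusted p of at most 0.019). Ndufc2 beside Thrsp had an r of 0.329, called in Eif2s3y-high livers, and of 0.117 in the other class, and Ung beside Acacb one of -0.317, also called, and of -0.049. Those called in Eif2s3y-low and not in Eif2s3y-high livers were Samm50 beside Pnpla3 (0.286, and 0.115 in Eif2s3y-high livers), Dus1l beside Fasn (-0.261 and -0.076) and Aatf beside Acaca (-0.250 and -0.069). The difference in r between the classes passed for 0 of these neighbour pairs, the lowest limma adjusted p being 0.248, for Ung. Among 16579 adjacent gene pairs, 6.07% and 5.02% had an r of at least 0.4, and 11.1% and 10.3% one of at least 0.3. Scd2, the desaturase next to Scd1, had an r of -0.046 and 0.024 with it, and cross-hybridisation between the 2 was not tested.

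Few markers of other cells were correlated with the set. Those of Kupffer cells, endothelium, cholangiocytes, skeletal muscle, pancreas acini, lymphocytes and red cells were called positive with at most 4 of the 10 genes in either class (Ctrb1 in Eif2s3y-high, Cdh5 in Eif2s3y-low livers). Of 5 stellate cell markers, 2 were called positive with 5 or more in Eif2s3y-high and 1 in Eif2s3y-low livers, Col3a1 having the highest mean r (0.287 and 0.262). Of 6 genes listed as adipose markers, Fabp4 (mean r 0.263) and Car3 (0.254) were in Eif2s3y-high livers. The shares of all genes outside the set were 5.69% and 3.7%. Car3, at a mean log2 intensity of 13.71, lay within the range of the hepatocyte markers, and its cell source was not tested. Without the 60 animals whose pancreas, muscle or adipose marker score lay more than 3 median absolute deviations above the median, the mean pairwise r of the set was 0.516 and 0.471.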

How the data were processed

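Total RNA of 294 livers was hybridised to Affymetrix arrays, 1 array per animal. The deposited values are intensities on a linear scale, summarised with RMA per the submitters' processing notes, its version not stated. They ran from 2.77 to 25519, with array medians of 21.1 to 23.2, and their log2 was taken without an offset. Of 32640 probe sets, 25508 had a single gene symbol and 7132 none; of 16788 symbols, 2830 were updated through RefSeq synonyms and 42 left as they were. The number of arrays limits the precision, and p-values measure the spread between animals.

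The 10 genes, the pathway lists and the markers were chosen with earlier results of these data known. Named genes were the 10 genes, their 10 nearest and 5 most inversely correlated genes in each class, the nearest gene of each, all regulators, and the 3 highest and the lowest of each other list. Class, block and slope fits used limma 3.58.1 in R 4.3.3 over all genes with Benjamini-Hochberg adjustment; permutation tests used numpy 2.4.6 with 100000 resamples. The scripts were tested on simulated data. Promoter windows came from RefSeq (GRCm38.p6). Alternatives covered normalization, offset, arrays, label blocks, probe sets, filters and the measure of correlation. No array was left out of the main values.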

Additional observations from a re-analysis of the deposited data

Results flagged for a closer look

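The test of a difference between the Eif2s3y classes was passed by 14 of 610 relations between the 10 lipogenic genes and 61 genes named outside them (limma adjusted p under 0.05 over 16642 genes for each lipogenic gene). That is 2.3%, against 0.559% of relations over all genes and 0.00601% to 2.54% for a single lipogenic gene, and the 61 genes were named in part for their correlations. Acaa1b accounted for 7 of them. Its r, Eif2s3y-high minus Eif2s3y-low, differed by 0.657 with Acly (0.352 against -0.305, adjusted p = 0.000189), by 0.6401 with Acacb (0.357 against -0.283), by 0.5481 with Fasn, by 0.5266 with Scd1, by 0.5027 with Me1, by 0.4987 with Thrsp and by 0.4662 with Pklr. Without label block 1 its r with Thrsp in Eif2s3y-high livers was 0.137 in place of 0.454, and with Acly 0.284 in place of 0.352.

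Agpat2 accounted for 4: its r differed by 0.5891 with Acly (0.176 against -0.413, limma adjusted p = 0.00132), by 0.5207 with Fasn, by 0.5011 with Me1 and by 0.4584 with Acacb. The r of Acadm with Acacb differed by 0.4141 (-0.213 against -0.627), and that of Ang with Acacb by -0.4686 (-0.506 against -0.037). The r of Mlxipl with Thrsp differed by 0.5239 (0.327 against -0.196), but without label block 1 the values were -0.170 and -0.191.

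The class difference of Thrsp in label block 1 minus that in the other blocks was -1.8246 on the log2 scale (limma adjusted p = 5.95e-05), from means of 10.16 and 11.61 in the block and 12.22 and 11.85 outside it (Eif2s3y-high first). The block was singled out after its values were seen.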

How the results depend on the processing

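The number of genes that differed between the Eif2s3y classes was 3 in the even label blocks in place of 6, and the number that differed between label blocks 4 in the even and 2 in the odd label blocks in place of 8. The classes shared 2 of their 10 nearest partners in the even label blocks in place of 4. These settings hold fewer animals. In the even blocks the class differences of Acacb (-0.20, limma adjusted p = 0.231), Fasn (-0.07, 0.645) and Elovl6 (-0.06, 0.72) did not pass, and in the odd blocks that of Thrsp did not (0.10, 0.627). Over the 13 settings the mean pairwise r ran from 0.487 to 0.571 in Eif2s3y-high and from 0.448 to 0.475 in Eif2s3y-low livers, with 32 to 38 and 27 to 41 pairs called positive, and 0 pairs differed between the classes in any of them by limma. No called class difference in level of the 10 genes changed sign under the alternatives tried. The tests of spread, of slopes with genes outside the set and of class by label block were run in the main setting alone. The class difference of Acly ran from -0.17 to 0.09, that of Scd1 from -0.12 to 0.36, that of Me1 from -0.03 to 0.15 and that of Pklr from -0.06 to 0.06, none called. No paired analysis was possible because the labels give a single group. The gaps of Pnpla3 rest on intensities near or below the array medians. Its share of positive calls over all genes was the highest of the 10 genes in Eif2s3y-high livers (16.3%) and the lowest in Eif2s3y-low livers (1.61%). The part of its dimness in these correlations was not tested.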
